A study of Caenorhabditis elegans with 2 samples.

Results

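The genes described here are the histone methyltransferase (SET domain), histone deacetylase, SWI/SNF and Mediator genes of Caenorhabditis elegans, set against the binding regions of the transcription factor LSY-27. They were taken by name: every protein-coding gene called set-, hda-, swsn- or mdt- with a number, together with met-1 and met-2, in the RefSeq annotation of assembly WBcel235. This gave 68 of 19983 protein-coding genes, of which 33 were SET domain genes, 8 histone deacetylase genes, 7 SWI/SNF genes and 20 Mediator genes. Genes of the same complexes under other names are given separately as related genes.

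LSY-27 is a C2H2 zinc finger protein known for its part in making the left and right ASE neurons, a pair of taste neurons, differ. The data come from chromatin immunoprecipitation and sequencing (ChIP-seq) of whole young adult hermaphrodites of strain OP401, a transgenic line that stably carries LSY-27 with a C-terminal tag of green fluorescent protein (GFP) and FLAG. The descriptions say that the pull-down used GFP, whereas the antibody field reads lsy-27. There was 1 group, with 2 biological replicates numbered 2 and 3. The labels do not say which sequences drive the tagged protein or in which cells it is made. All tissues were pooled, so a region in few cells and a weak region in many cannot be told apart.

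Each list gives regions with a summit and a signal value, the authors' own score, on a scale that the sources used here do not explain. The thresholded list, made from both replicates, held 342 regions with signals of 22.1 and above. The pooled relaxed list, which by design holds background too, held 30000 regions. Replicate 2 alone had a relaxed list of 12414 regions and replicate 3 one of 29326. The 342 thresholded regions were exactly the 342 strongest of the pooled list. A gene was counted as having a region at its 5′ end when a summit fell in the window that starts 1000 bp upstream of its annotated 5′ end and stops 200 bp downstream of it. Positions are given from that end, with negative values upstream. All coordinates are 1-based on build ce11. The sources used here give no read depth, so no interval based on reads could be made, and the control was not analysed here.

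SET domain proteins add methyl groups to histone lysines, and different members mark active or silent chromatin. Histone deacetylases remove acetyl groups and commonly act in repressor complexes. SWI/SNF complexes use an ATPase to slide or evict nucleosomes, and Mediator carries signals from DNA-bound factors to RNA polymerase II. In C. elegans these genes are expressed in many tissues and are known from work on the germ line, the vulva, cell fate and lipid metabolism.

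Of the 68 genes, 5 had a thresholded region at the 5′ end, with at least 1 in each of the 4 families. They were set-16, a homologue of the mammalian MLL-type histone H3 methyltransferases, met-1, a homologue of the SETD2-type methyltransferase that marks transcribed genes, hda-6, a class II histone deacetylase, swsn-3, a SWI/SNF subunit with an HMG box, and mdt-26, a Mediator subunit gene. The share of members was 7.35% (exact Clopper-Pearson 95% interval 2.43 to 16.3), against 1.13% of all protein-coding genes (226 of 19983). Such intervals treat genes as independent and cover counting error only. Among the 342 strongest regions of replicate 3 alone, 5 members had one at the 5′ end, against 1.09% of all genes, with swsn-7 in place of hda-6. Among those of replicate 2 alone there were 4 (5.88%), against 1.22% of all genes, with swsn-4 gained and met-1 and mdt-26 lost. Within the stronger 171 thresholded regions there were 2 (2.94%), set-16 and swsn-3, against 0.555% of all genes. With 1 group and a list chosen with earlier results known, no test was made of these shares.

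The bases around the summits of set-16, swsn-3, hda-6 and mdt-26 are shown because they are the strongest regions of their families and differ plainly in make-up. Each sequence is the ce11 reference over 201 bp centred on the summit, 5′ to 3′ in the direction of the gene. They are chrIII:13643639-13643839 (plus strand) for set-16, chrIII:2768741-2768941 (minus strand) for swsn-3, chrIV:5364217-5364417 (minus strand) for hda-6, chrII:5661160-5661360 (plus strand) for the mdt-26 start and chrII:5661767-5661967 (plus strand) for the mdt-26 intron. Capitals mark matches on either strand to the motifs searched, and adjoining or overlapping matches run together. The motifs were GTTCGANNC (the core of the B box of tRNA promoters), TTTTTTTT, CCGCCC (a box of the Sp1 type), GAGAGA (the kind of repeat bound by GAGA factors in flies), TATAAA (the core promoter box bound by TBP) and TTTCAG (the end of a trans-splice acceptor). CTGCGTCT and the E-box sequence CACGTG were added to the search after these sequences were seen.
set-16: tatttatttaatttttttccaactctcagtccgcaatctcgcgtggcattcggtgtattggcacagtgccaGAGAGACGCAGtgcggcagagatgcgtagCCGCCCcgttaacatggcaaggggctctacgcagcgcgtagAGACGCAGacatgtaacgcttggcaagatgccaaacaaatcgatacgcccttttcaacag
swsn-3: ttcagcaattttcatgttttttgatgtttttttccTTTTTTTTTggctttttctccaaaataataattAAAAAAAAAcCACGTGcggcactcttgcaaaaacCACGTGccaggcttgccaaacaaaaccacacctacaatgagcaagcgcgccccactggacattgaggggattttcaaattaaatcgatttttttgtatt
hda-6: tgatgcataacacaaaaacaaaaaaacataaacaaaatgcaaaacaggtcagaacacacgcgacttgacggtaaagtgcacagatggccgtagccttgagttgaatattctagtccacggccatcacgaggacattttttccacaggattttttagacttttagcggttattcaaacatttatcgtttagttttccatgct
mdt-26 start: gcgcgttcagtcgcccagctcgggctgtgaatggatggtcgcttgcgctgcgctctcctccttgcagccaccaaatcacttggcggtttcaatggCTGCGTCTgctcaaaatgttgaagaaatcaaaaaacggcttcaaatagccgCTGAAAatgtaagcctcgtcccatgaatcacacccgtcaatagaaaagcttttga
mdt-26 intron: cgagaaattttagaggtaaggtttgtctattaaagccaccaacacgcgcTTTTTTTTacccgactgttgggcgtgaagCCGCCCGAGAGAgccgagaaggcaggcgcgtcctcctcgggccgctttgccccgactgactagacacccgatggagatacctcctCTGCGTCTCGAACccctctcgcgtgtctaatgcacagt

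The set-16 window held CTGCGTCT at 2 places on the minus strand, from -26 to -19 and from 41 to 48 bp of the summit, and CCGCCC from 0 to 5 bp. The first CTGCGTCT overlapped a GAGAGA. At the start of mdt-26 the same CTGCGTCT ran from -5 to 2 bp of the summit, on the plus strand. In the mdt-26 intron it ran from 63 to 70 bp and overlapped the GTTCGANNC of the minus strand at 67 to 75 bp. The window of met-1, which is not shown, held it from -48 to -41 bp. CTGCGTCT was thus present at 4 of the 6 thresholded regions of these genes, whereas it was present at 13 of the 342 thresholded regions in all (3.80%, these 4 among them). Elsewhere it was found in 2.61% of pooled relaxed windows and in 1.62% of windows of 201 bp centred on protein-coding 5′ ends. Among the strongest pooled regions at the members' 5′ ends it was present in 3 of 38 (7.89%). The motif was picked because it recurred in these windows, so the counts are a description. CCGCCC and GAGAGA, given above for set-16, were also present in the mdt-26 intron, and GAGAGA at met-1. Over all thresholded windows, CCGCCC was present in 12.3% and GAGAGA in 22.5%. In windows at protein-coding 5′ ends the shares were 5.07% and 13.8%.

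The swsn-3 window did not hold CTGCGTCT. It held CACGTG, a palindrome, from -22 to -17 and from 2 to 7 bp of the summit. A run of T lay from -65 to -57 bp and a run of A from -32 to -24 bp, both upstream of the first copy. TTTTTTTT was also present in the mdt-26 intron window, from -51 to -44 bp. On either strand it was found in 12.9% of thresholded windows, 23.5% of pooled relaxed windows and 19.0% of windows at protein-coding 5′ ends. CACGTG was present in 4.68% of thresholded windows, 3.73% of pooled relaxed windows and 4.35% of windows at protein-coding 5′ ends. The hda-6 window held none of the motifs. The share of G and C was 51.2% at set-16, 50.7% at the start of mdt-26, 56.2% in its intron and 50.2% at met-1, against medians of 44.3% over thresholded windows and 35.8% over protein-coding 5′ ends. It was 36.3% at swsn-3 and 38.3% at hda-6. Every 32-base word of these 6 regions occurs once in the genome, which holds for 168 of the 318 nuclear thresholded regions (52.8%).

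set-16 had the strongest region of any member. It spanned chrIII:13643581-13643896 between protein-coding genes, with its summit at -177 bp. Its signal was 37.9 in the pooled list, rank 58 of 30000 regions, and by this value set-16 ranked 26 among the 8295 genes with a pooled region at the 5′ end. In replicate 2 the overlapping region had a signal of 15.6, rank 50 of 12414, and in replicate 3 it had 24.0, rank 83 of 29326. Both replicates thus placed it among their first 100 regions, with summits at most 17 bp apart. The region lies in a head-to-head promoter shared with drr-2, a gene known for its part in the response to dietary restriction, and the summit lies at -169 bp from the drr-2 5′ end. It is therefore slightly nearer to drr-2 than to set-16, and a rule that gives each summit to the nearest 5′ end takes this call from set-16.

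swsn-3 had the highest value of the SWI/SNF genes. Its region, chrIII:2768683-2768998, had its summit at -162 bp and a pooled signal of 34.5, rank 92. The overlapping regions had signals of 9.67 in replicate 2 (rank 221) and 25.7 in replicate 3 (rank 69). No other protein-coding 5′ end had this summit in its window, and from the nearest other one, that of pho-9, the summit lay at -8025 bp. Of the 5 thresholded regions in the members' 5′ windows, those of swsn-3 and met-1 fell in a single gene's window.

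mdt-26 carried 2 thresholded regions. The weaker, chrII:5661102-5661417, had its summit 79 bp inside the gene in a coding exon, 66 bp past the first coding base, with signals of 26.2 pooled, 6.93 in replicate 2 and 18.5 in replicate 3. It also fell in the window of the divergent gene ift-43, which encodes an intraflagellar transport protein, at -474 bp. The stronger, chrII:5661709-5662024, lay in an intron with its summit 686 bp inside the gene. Its signals were 50.1 pooled (rank 29), 11.2 in replicate 2 (rank 133) and 36.4 in replicate 3 (rank 32). The intronic region, outside the 5′ window, was the strongest region at or within any of the 68 genes. It holds the B-box core GTTCGANNC, which was present in 55.1% of the 187 nuclear thresholded windows that had a short non-coding RNA gene (tRNA, snRNA or snoRNA) within 500 bp and in 5.34% of the 131 farther away. The nearest such gene in the annotation was a snoRNA gene 39795 bp away.

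hda-6 lay just above the threshold. Its region, chrIV:5364159-5364474, had its summit at -11 bp and a pooled signal of 22.4, rank 327 of the 342. In replicate 2 the signal was 9.83 (rank 208) and in replicate 3 it was 9.57 (rank 1255), so it ranked higher among the regions of replicate 2. The divergent gene F41H10.4 has the same summit in its window, at -242 bp.

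met-1 was the opposite case. Its region, on chromosome I at 4254078 to 4254393, had its summit 39 bp inside the gene, in an exon outside the coding sequence, with a pooled signal of 24.9 (rank 226). Replicate 3 had an overlapping region with a signal of 16.4 (rank 265) and replicate 2 had none. In the whole met-1 window, replicate 2 had a single region, at -884 bp, whose signal was 4.85. Of all 342 thresholded regions, 330 (96.5%) were overlapped by a region of replicate 2 and 342 by one of replicate 3, so met-1 belongs to the 12 that were not matched in replicate 2.

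**Figure D1:**
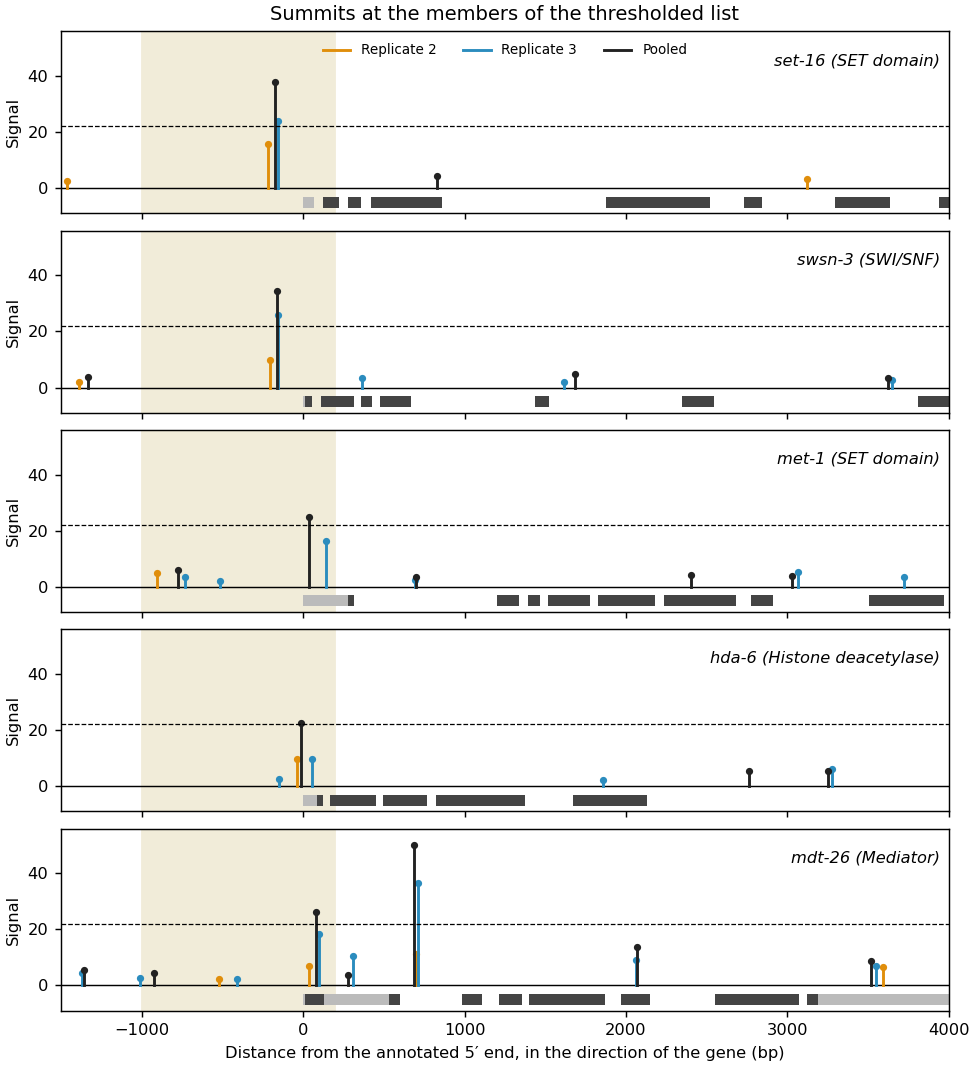
Summits of the pooled list and of both replicates at set-16, swsn-3, met-1, hda-6 and mdt-26, with signal (the authors' score) on the y axis and distance from the annotated 5′ end in bp on the x axis. Replicate summits are drawn slightly to the left (replicate 2) or right (replicate 3) of their position so that lines do not hide each other. Dark boxes are coding exons of any transcript, pale boxes other exons, the shaded band is the window from 1000 bp upstream to 200 bp downstream and the dashed line marks 22.1, the lowest thresholded signal. Replicate 2 has no line beside the met-1 summit at 39 bp, and the tallest line of all is the pooled summit at 686 bp in mdt-26.

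The summits of these 5 regions all lay between -177 and 79 bp. Over all genes with a thresholded region at the 5′ end, 113 of 226 (50.0%) had it between -300 and 100 bp. None of the 6 thresholded regions had a short non-coding RNA gene within 500 bp. Of all 318 nuclear thresholded regions, 187 had one. With such regions left out, 167 of the 226 genes kept a thresholded region at the 5′ end. For the members' regions in the pooled list, the positions spread over the whole window, with a median of -283 bp in 38 members against -304 bp in 8295 genes. The members closest to the window's edges were set-1 (-975 bp, signal 5.14) inside and mdt-8 (-1014 bp, 7.09) outside on the upstream side, and mdt-15 (195 bp, 4.11) inside and set-8 (211 bp, 5.00) outside on the downstream side. All 4 were weak regions, below the threshold. The same 5 members had a thresholded region with 500 or 2000 bp upstream. The downstream limit left out the stronger mdt-26 region, at 686 bp, but mdt-26 was counted through its other region.

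In the pooled relaxed list, 38 of 68 members (55.9%, exact 95% interval 43.3 to 67.9) had a region at the 5′ end, against 41.5% of all protein-coding genes. The count was 18 of 33 for SET domain genes, 4 of 8 for histone deacetylases, 6 of 7 for SWI/SNF genes and 10 of 20 for Mediator genes. Replicate 2 gave 21 members (30.9%) against 21.2% of genes, and replicate 3 gave 46 (67.6%) against 39.9%. By family, replicate 2 gave 8, 2, 4 and 7 genes and replicate 3 gave 21, 6, 5 and 14, in the same order. At 17 members (25.0%) each replicate's list had a summit somewhere in the window, which need not be the same region, as at met-1, against 13.2% of genes. These were 6 SET domain, 2 histone deacetylase, 3 SWI/SNF and 6 Mediator genes. The member shares were above the shares of all genes in every list, but the lists share their libraries and are not independent. For replicate 2 the exact 95% interval of the members was 20.2 to 43.3%, which holds the 21.2% of all genes. The intervals of the families overlap one another widely, and with 7 and 8 genes in the smaller families the data cannot order them.

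**Figure D2:**
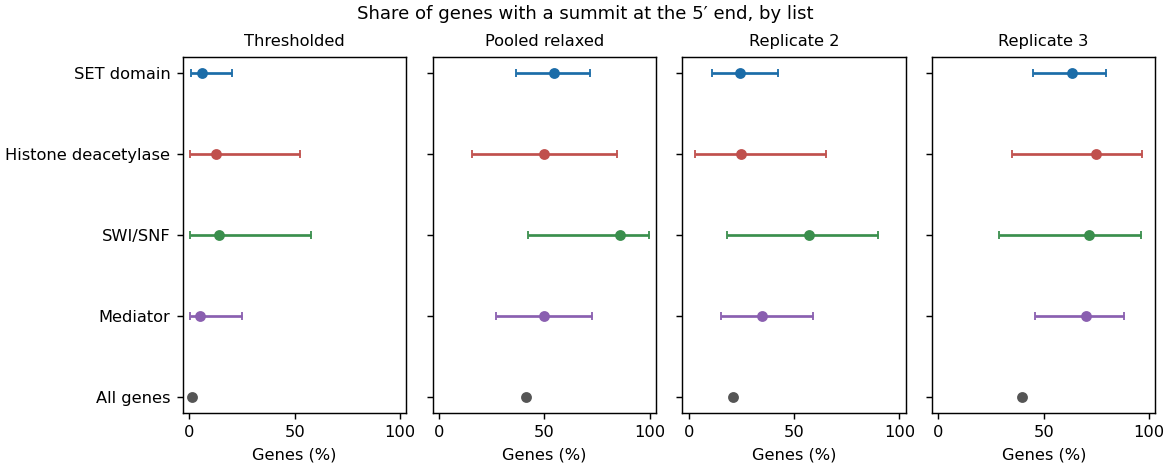
Share of genes with a summit at the 5′ end in each list, in percent on the x axis, for the 4 families and for all protein-coding genes, with exact 95% Clopper-Pearson intervals as bars. The family intervals overlap one another in every list, and those of all genes are narrower than the points.

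The signals of the 4 families overlapped. Among members with a pooled region at the 5′ end, the median signal was 7.29 (n = 38), against 5.80 over all genes with one (n = 8295). It was 5.59 for SET domain genes (3.41 to 37.9, n = 18), 8.84 for histone deacetylases (4.13 to 22.4, n = 4), 12.2 for SWI/SNF genes (5.27 to 34.5, n = 6) and 7.74 for Mediator genes (3.15 to 26.2, n = 10). The SET domain median was slightly below that of all genes. A signal of 10 or more was reached by 14 of 68 members (20.6%), against 8.22% of all genes. These 14 were 5 of 33 SET domain genes, 2 of 8 histone deacetylases, 3 of 7 SWI/SNF genes and 4 of 20 Mediator genes.

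**Figure D3:**
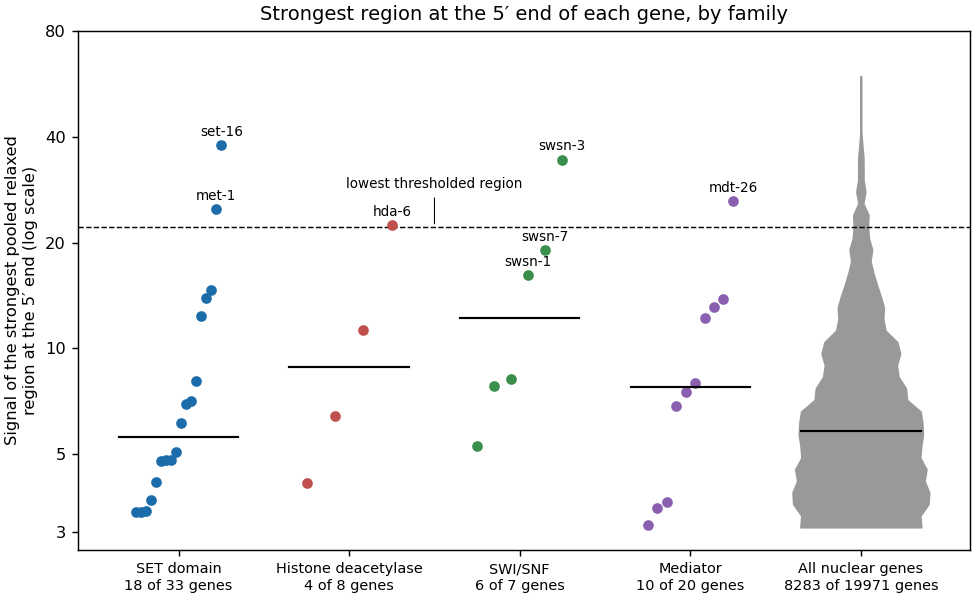
Signal of the strongest pooled relaxed region at the 5′ end of each gene, on a log scale, by family, with the spread over all nuclear protein-coding genes at the right, where the width of the shape is the number of genes. Horizontal bars are medians, the dashed line is the lowest thresholded signal (22.1), and the highest member is set-16 at 37.9.

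The SWI/SNF genes had 2 further regions with a signal of 10 or more, both below the threshold. swsn-7, which encodes the ARID2-type subunit of the PBAF form of the complex, had a pooled region at -689 bp with a signal of 19.0. Replicate 3 had it at 17.0 and replicate 2 had no region over it. swsn-1, the core scaffold subunit related to yeast Swi3, had 16.2 at -390 bp, with 3.13 in replicate 2 and 13.5 in replicate 3. swsn-6, an actin-related subunit, had 8.17, swsn-2.2, one of a pair of BAF60-type subunit genes, had 7.82, and swsn-9, a bromodomain subunit, had 5.27. swsn-4, the ATPase, was the exception. It had no region at the 5′ end in the pooled list or in replicate 3, but one of 9.02 at -630 bp in replicate 2, the fourth highest value of that list at a member's 5′ end.

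SWI/SNF genes under other names were also looked up after the values were seen. ham-3, the other BAF60-type subunit gene, had a pooled signal of 7.31 at -79 bp, and snfc-5, the SNF5 homologue, had 8.01 at -453 bp. Neither had a thresholded region.

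Among SET domain genes, the next strongest after set-16 and met-1 was set-26, a PHD finger and SET domain gene known for its part in lifespan. Its region had a pooled signal of 14.7 at -480 bp, 7.03 in replicate 2 and 13.8 in replicate 3. The summit lay nearer to the divergent gene tsr-2, at -250 bp. met-2, the methyltransferase that with set-25 builds silent chromatin marks on histone H3, had 13.9 at 95 bp, in a coding exon, and 9.89 in replicate 3, with no overlapping region in replicate 2. set-4, a histone H4 methyltransferase known from dosage compensation, had 12.4 at -300 bp and 11.0 in replicate 3, again with none in replicate 2. The other 13 SET domain genes with a pooled region lay between 3.41 for set-14 and 8.09 for set-1, the enzyme that acts upstream of set-4 on histone H4. set-2, the methyltransferase of the COMPASS complex, had no pooled summit in its window, although the gene held one of 14.3 in an intron, 627 bp inside.

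Among the deacetylases, hda-6 was followed by hda-11, the single class IV enzyme, with a pooled signal of 11.3 at -76 bp. Replicate 3 had 9.76 at the same base and replicate 2 had none. The summit also lay in the window of the divergent gene xpo-7, an exportin gene, at -200 bp. hda-1, the main class I enzyme in C. elegans development, had 6.40 at -873 bp, a summit nearer to the divergent gene ril-1 at -395 bp. hda-2 had 4.13, and hda-3, hda-4, hda-5 and hda-10 had no pooled region at the 5′ end.

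Among Mediator genes, mdt-26 was followed by mdt-6, a head module subunit, with 13.8 at -926 bp. Replicate 2 had 4.02 and replicate 3 had 7.82 there, but the summit was at -192 bp from the neighbouring gene Y57E12AL.6. mdt-9 had 13.1 at -90 bp with 6.49 in replicate 2 and 6.95 in replicate 3, and that summit was nearer to Y62E10A.23, at -34 bp. mdt-22 had 12.2 at 35 bp, with 10.8 in replicate 3 and none in replicate 2, and that summit also lay in an intron of clpp-1. mdt-15, known as a regulator of lipid metabolism genes, had 7.52 at -456 bp, with 4.93 in replicate 2 and 5.38 in replicate 3, and here R12B2.6 was nearer, at -48 bp. The other 5 Mediator genes with a pooled region lay between 3.15 for mdt-18 and 7.96 for mdt-19.

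Some of these regions could belong to a neighbour. Of the 38 strongest pooled regions, 14 (36.8%) also lay in the window of another protein-coding gene and 11 (28.9%) had another gene's 5′ end nearer. The matching shares over all genes were not computed, so these counts are not a trait of the members. When each pooled summit went to the nearest 5′ end, 29 members (42.6%) kept one, against 35.0% of all genes. A short non-coding RNA gene within 500 bp was found for 1 of the 38 regions, that of set-21, whose summit was 338 bp from the snoRNA gene Y24D9A.9. With regions near such genes left out, 37 of the 38 members kept a pooled region at the 5′ end. The same held for 8102 of the 8295 genes, so the members were close to all genes. Some members are neighbours of each other: hda-2 and swsn-7 lie 70 bp apart, set-19 and set-20 104 bp apart and swsn-1 and mdt-17 1325 bp apart. The pooled region at -609 bp of hda-2 lies inside swsn-7, so that 1 region was counted for both genes.

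Within the genes, 2 of 68 members had a thresholded summit (2.94%), met-1 and mdt-26, against 0.580% of all genes. Counting the window and the gene together, 5 members (7.35%) had a thresholded summit, against 1.62% of genes. In the pooled list 48 members (70.6%) had a summit within the gene, against 47.6% of genes. Replicate 2 gave 31 (45.6%) against 26.2% of genes, and replicate 3 gave 49 (72.1%) against 48.1%. The median gene length was 3460 bp over members against 2005 bp over all protein-coding genes, and its part in these shares was not tested. Per length, members held 3.28 pooled summits per 10 kb against 2.91 over all genes. The density was 1.34 against 1.16 in replicate 2 and 3.54 against 2.89 in replicate 3. By family the pooled density was 2.87 for SET domain genes, 4.45 for histone deacetylases, 3.14 for SWI/SNF genes and 3.61 for Mediator genes.

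**Figure D4:**
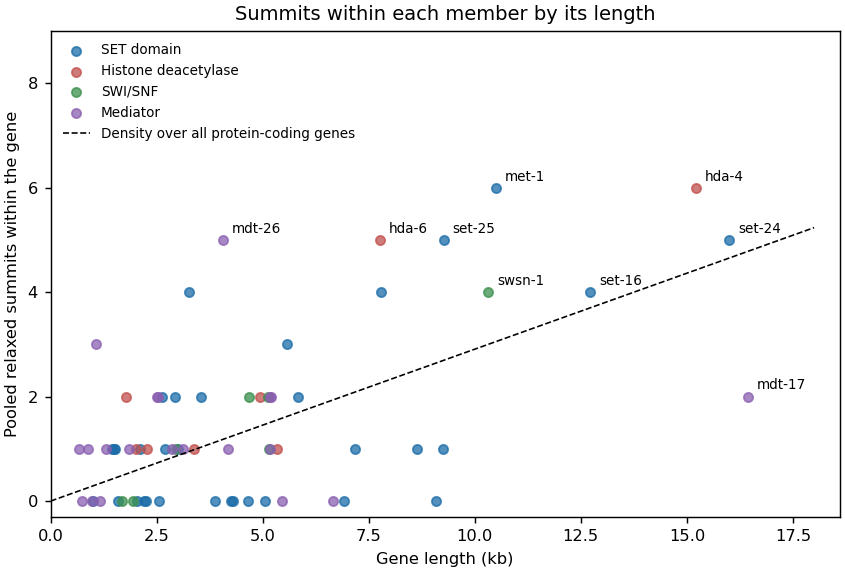
Number of pooled relaxed summits within each member, on the y axis, by its length in kb on the x axis, coloured by family. The dashed line is the density over all protein-coding genes, 2.91 per 10 kb. met-1 and hda-4 hold the most summits, 6 each, and mdt-26 holds 5 in 4063 bp.

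All 8 histone deacetylase genes held a pooled summit (exact interval 63.1 to 100%), against 47.6% of all protein-coding genes. Their median length was 4151 bp, against 2005 bp over all genes, and its part in this share was not tested. The 8 include hda-4, a class II enzyme known from neurons and muscle, with 6 summits in 15211 bp and a highest signal of 6.57. Below the threshold, the strongest summit within a member was in an intron of mdt-4, at 19.3, with 16.7 in replicate 3 and 6.24 in replicate 2. It lay 99 bp from the snoRNA gene ZK546.18. A summit of 13.6 in an intron of set-18 lay 35 bp from the tRNA gene T22A3.t1. For the summit in set-2 (14.3) the nearest such gene was 80299 bp away. For one of 11.6 in a coding exon of set-25, 404 bp inside the gene, it was 10653 bp away. Whether the signal in mdt-4 and set-18 belongs to the host gene or to the short gene cannot be told apart from regions of 316 bp.

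No summit lay in the window or the gene in any of the 4 lists for 2 members, set-19 and mdt-11 (2.94%), against 23.2% of all protein-coding genes. set-19 spans 5049 bp and mdt-11 spans 737 bp. Of the 30 members with no pooled region at the 5′ end, 20 held one within the gene and 15 had one at the 5′ end in the list of at least 1 replicate. The matching shares among all genes with no pooled region at the 5′ end were not computed, so these counts are a description only.

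The replicates were compared over the 38 strongest pooled regions at the members' 5′ ends. A region of replicate 2 overlapped 15 (39.5%) and one of replicate 3 overlapped 34 (89.5%), and all 15 were overlapped by both. Over all genes the shares were 36.8%, 72.2% and 25.4% for both. The replicate 3 list is the longer one (29326 against 12414 regions), and the part of list length in these shares was not tested. Over the 15 regions, the log2 signals of the replicates had a Pearson correlation of 0.68 and a Spearman correlation of 0.69. Without the 4 thresholded ones, the values over 11 regions were 0.32 and 0.36. The regions left out were chosen for high pooled values, so the range was narrower. Its part in the lower correlations was not tested. These are correlations across genes that share both libraries and were given no p.

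**Figure D5:**
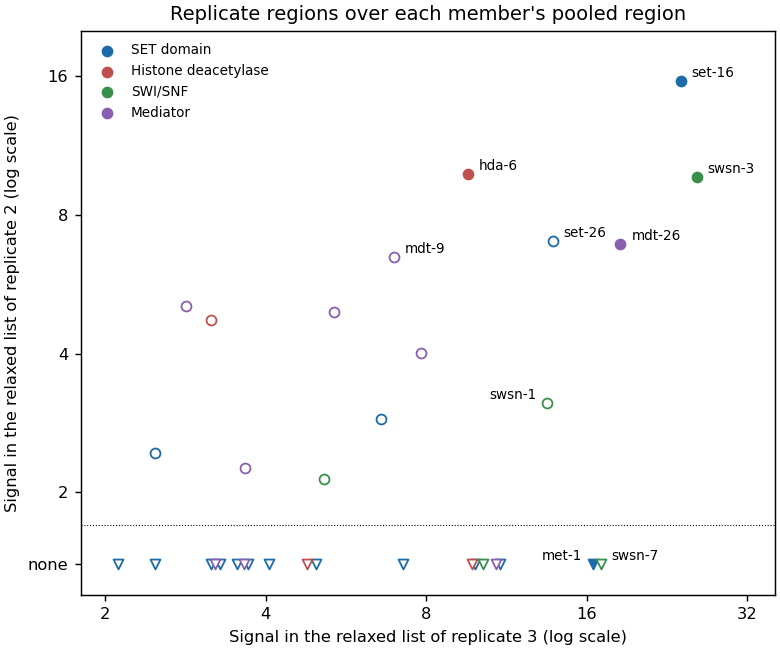
Signal of the replicate 2 region (y axis) and the replicate 3 region (x axis) over the strongest pooled region at each member's 5′ end, both on log scales and coloured by family. Filled symbols are thresholded regions, triangles are members with no replicate 2 region, and the 4 members with no replicate 3 region are not drawn. set-16 is highest in replicate 2 (15.6) and swsn-3 in replicate 3 (25.7), and met-1 is the filled triangle.

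Across the chromosomes, the thresholded members were 2 of 14 on III and 1 each of the 10, 15 and 10 on I, II and IV. None of the 10 on V and none of the 9 on X had a thresholded region. Over all nuclear genes, the thresholded counts were 56 on III, 51 on I, 35 on IV, 31 on II, 23 on V and 18 on X. The 226 genes given above also include mitochondrial ones. With 5 regions this spread allows no statement on single chromosomes.

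A list of 57 related chromatin and Mediator genes under other names was set beside the members, and 56 matched the annotation. Of these, 1 (1.79%) had a thresholded region at the 5′ end, close to the share of all genes, 1.13%. It was lin-53, a histone-binding protein of several chromatin complexes, with a pooled signal of 28.9 at -227 bp, 8.31 in replicate 2 and 19.5 in replicate 3. A pooled region was present at 44 (78.6%) and a summit in the window in each replicate's list at 22 (39.3%), while members had 55.9% and 25.0% and all genes 41.5% and 13.2%. After lin-53, the strongest pooled regions were those of nurf-1 (19.8), isw-1 (18.8) and mys-1 (17.6), which encode subunits of the NURF remodeller and a MYST family acetyltransferase. The differences between the related genes and the members were not tested. Within the Mediator kinase module, cdk-8 had a pooled signal of 3.18, cic-1 7.34 and dpy-22 11.6, while let-19 had no pooled region at the 5′ end.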

How the data were processed

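LSY-27 ChIP-seq regions of 2 biological replicates were used as deposited in narrowPeak lists of build ce11. Per the text the authors deposited beside the lists, relaxed regions were called for each replicate against a control and for the pooled replicates, and the thresholded list came from an irreproducible discovery rate step. The peak caller, aligner and settings are not given in the sources used here, nor is the depth. The deposited signal (column 7) is the authors' score, used only to rank and describe regions within a list. The deposited summit position (column 10) placed each region. The ce10 lists were not used.

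Summits were assigned to genes of the RefSeq annotation of WBcel235, whose chromosome lengths hold every ce11 region. Regions counted as overlapping shared at least 1 bp. The members, families, related genes and comparisons were chosen with earlier results of these data known. Named genes are those with a thresholded summit, the 3 strongest of each family by pooled signal, those at the window's edges and those with no summit. The rest, ham-3 and snfc-5 among them, were named after their values were seen. No p-values were computed. The replicates are a single group, so spread between conditions does not arise. Shares carry Clopper-Pearson (exact) 95% intervals. The assignment was tested on simulated summits planted at known distances. Alternatives were other windows, the nearest 5′ end only, the 5′ end of any transcript, overlap in place of the summit, exclusion of regions near short non-coding genes, stricter lists and each replicate alone. Analyses used Python 3.11.15, numpy 2.4.6 and scipy 1.17.1, with figures in matplotlib 3.10.9.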

Additional observations from a re-analysis of the deposited data

How the results depend on the processing

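The count of 5 members with a thresholded region at the 5′ end was also 5 with windows of 500 or 2000 bp upstream, the 5′ end of any transcript, overlap in place of the summit, or regions near short non-coding genes left out. The shares of all genes were then 0.881%, 1.49%, 1.18%, 1.21% and 0.836%, in the same order. The count was 4 (5.88%) when each summit went to the nearest 5′ end, without set-16, against 0.786% of all genes. Kept to the stronger 171 thresholded regions, it was 2 (set-16 and swsn-3, against 0.555% of all genes), and the count within genes was 1 (mdt-26, against 0.290% of all genes). The strongest 12414 pooled regions gave 24 members at the 5′ end (35.3%, against 23.5% of all genes), and the median signal was 7.67 with 500 bp and 6.90 with 2000 bp upstream.

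Each replicate alone was taken at its strongest 342 regions for the thresholded counts and its strongest 12414 for the relaxed ones. The thresholded count at the 5′ end was then 4 to 5 (5.88 to 7.35%, against 1.09 to 1.22% of all genes). Without replicate 2, swsn-7 entered and hda-6 left. Without replicate 3, swsn-4 entered and met-1 and mdt-26 left. The thresholded count within genes was 1 to 3 (1.47 to 4.41%, against 0.591 to 0.601% of all genes), with mdt-4 added without replicate 2 and met-1 lost without replicate 3. The relaxed counts were 21 to 26 at the 5′ end (30.9 to 38.2%, against 21.2 to 22.3% of all genes) and 29 to 31 within genes (42.6 to 45.6%, against 25.5 to 26.2%). The cause of these shifts was not tested. No paired analysis was possible because there was a single group. The unknown read depth limits every statement on absent regions.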
